A study of Mus musculus with 3 samples.

Results

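Pax6, Barhl1, Barhl2, Meis1, Meis2, En1, En2, Lhx1, Etv1 and Otx2 are transcription factor genes that pattern the cerebellum or mark its cell types. These 10 genes were chosen by name, out of 19744 genes in the count tables, and all 10 had counts in every tumour. They were followed in 3 medulloblastomas from hGFAP-Cre/SmoM2 (G-Smo) mice on a C57BL/6 background. The hGFAP promoter drives Cre in neural stem and progenitor cells, where recombination turns on SmoM2, a mutant Smo that signals in the Hedgehog pathway without ligand. Every mouse received the CDK4 and CDK6 inhibitor palbociclib at 25 mg/kg as POx-palbo, a nanoparticle form. It was given by intraperitoneal injection in 5 daily doses from postnatal day 10, and tumours were taken on postnatal day 16. All 3 tumours form 1 group, so the comparisons lie between classes of barcodes within the same tumours, and untreated tumours are not analysed here.

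Granule neuron progenitors arise in the upper rhombic lip of the embryo, where the proneural factor Atoh1 specifies them, and the Hedgehog signal from Purkinje cells makes them divide before they become granule neurons. Pax6, Barhl1 and Meis1 are expressed along this lineage, En1 and En2 mark the midbrain and hindbrain territory from which the cerebellum grows, and Otx2 is known for its part in setting the midbrain border and in posterior granule progenitors. Lhx1 is best known in the cerebellum for Purkinje cells and other GABAergic neurons, and Etv1 for maturing granule neurons.

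The Drop-seq tables held 8827, 2330 and 9802 barcodes with totals of 1150463, 248617 and 1324350 counts in tumours 1, 2 and 3. Barcodes with at least 200 counts numbered 1060, 148 and 1059, with median depths of 353.5, 255.5 and 301 counts. Tumour 2 had the fewest counts in every class, and its share of mitochondrial counts, 11.4% of all counts, stood above the 3.97% of tumour 1 and the 5.61% of tumour 3. The labels give 3 separate tumours, and the tables of no pair were alike within counting noise (chi-square per degree of freedom over genes 6.56 to 11.4). Pairs of tumours shared 3, 8 and 3 barcode sequences (tumours 1 and 2, 1 and 3, and 2 and 3). Counts for all 8 granule progenitor markers and all 8 granule neuron markers were found in each tumour. Unipolar brush cell markers summed to 29, 4 and 30 counts in tumours 1, 2 and 3, and choroid plexus markers to 30, 1 and 208 counts, with the defining choroid gene Ttr at 0 in tumours 1 and 2.

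Across whole tumours the 10 genes fell into an abundant and a sparse set. Lhx1, Barhl1, Pax6 and Meis1 averaged from 472 to 189 CPM (counts per 1000000 counts of a tumour or pool), while the other 6 stayed below 49 CPM in every tumour. Drop-seq counts each captured molecule at its 3′ end, so CPM was not divided by gene length, and the order of 2 genes also depends on how well each 3′ end is captured. In bulk totals, fewer cells that express a gene and less RNA per cell cannot be told apart.

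Lhx1, a LIM homeobox factor, had the highest mean level, with 363.3, 510.8 and 541.4 CPM in tumours 1, 2 and 3. Its mean was 472 ± 95.2 CPM (SD, n = 3), from 1262 counts. Tumour 1 was low: its 95% Poisson interval ran up to 399.9 CPM, and that of tumour 3 began at 502.5 CPM. Such intervals cover counting error only.

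Barhl1, a BarH-like homeobox factor of the granule lineage, had 459.8, 358.0 and 419.8 CPM in tumours 1, 2 and 3, a mean of 413 ± 51.3 CPM (SD, n = 3). It was above Lhx1 in tumour 1 and below it in tumours 2 and 3, so the order of these 2 genes did not hold across tumours. Pax6, a paired-box homeobox factor, had 351.2, 317.8 and 318.6 CPM, and its mean of 329 ± 19.0 CPM (SD, n = 3) showed the smallest relative spread of the 10 genes. Pax6 was below Lhx1 and Barhl1 in each tumour. Meis1, a TALE homeobox factor that binds DNA with PBX partners, had 211.2, 177.0 and 178.2 CPM and lay below Pax6 in every tumour without overlap.

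The related genes of the same families were far lower. Barhl2, the paralog of Barhl1, had 40.9, 28.2 and 48.3 CPM in tumours 1, 2 and 3. Meis2, the paralog of Meis1, had 28 counts in all, with a mean of 8.82 ± 6.07 CPM (SD, n = 3). Within each of these pairs the paralogs therefore stood apart in all 3 tumours. The engrailed genes did not: En1 averaged 14.9 ± 6.16 CPM and En2 9.76 ± 2.15 CPM (SD, n = 3 each), and both had 2 counts in tumour 2.

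Otx2 averaged 30.2 ± 9.62 CPM, from 93 counts, and the ETS factor gene Etv1 averaged 26.8 ± 8.78 CPM, from 70 counts (SD, n = 3 each). Etv1 had its lowest value, 17.4 CPM, in tumour 3, where Otx2 had its highest, 39.3 CPM. The levels of Barhl2, Otx2 and Etv1 overlapped among tumours, and so did those of En1, En2 and Meis2, so no order within the sparse set is given.

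**Figure D1:**
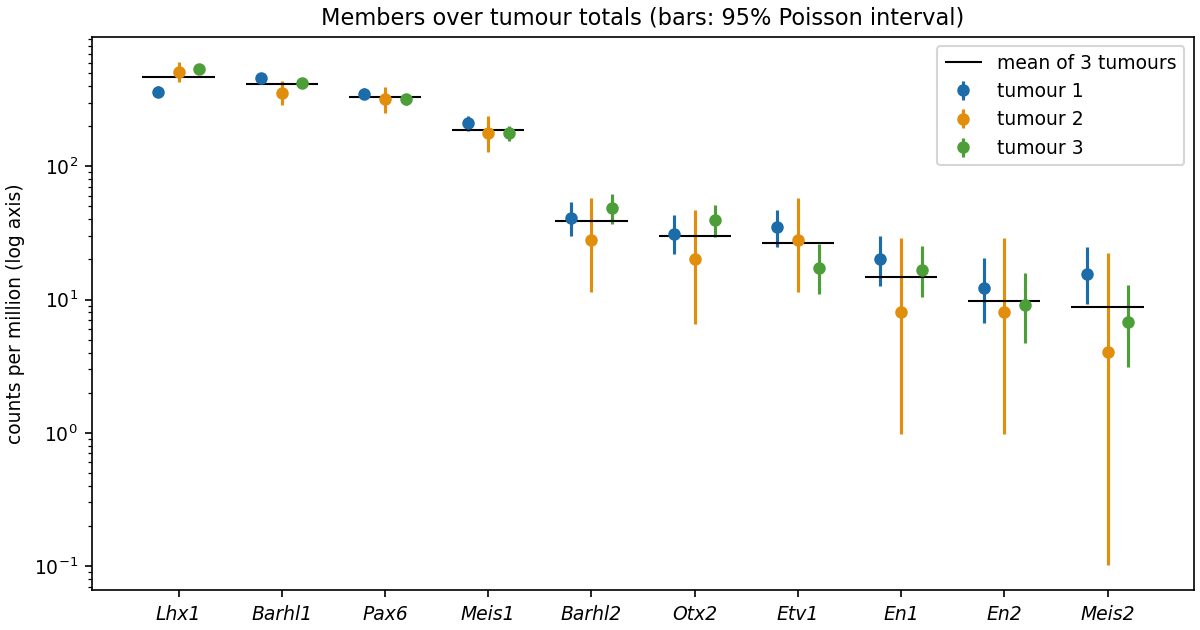
Level of each of the 10 genes over all barcodes of each tumour, in CPM on a log axis, with points for tumours, bars for 95% Poisson intervals and a line for the mean of 3 tumours. Lhx1, Barhl1, Pax6 and Meis1 lie above the other 6 genes in every tumour.

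The abundant genes were also present at all depths. In barcodes under 100 counts, Barhl1 had 468.1, 203.4 and 305.6 CPM in tumours 1, 2 and 3, and Lhx1 had 302.2, 466.1 and 418.0 CPM. In barcodes with at least 200 and under 500 counts, Barhl1 had 408.4, 752.9 and 574.2 CPM, and Lhx1 had 447.5, 430.2 and 589.7 CPM. Barhl1 was thus higher in the deeper bin in tumours 2 and 3 and lower in it in tumour 1.

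**Figure D2:**
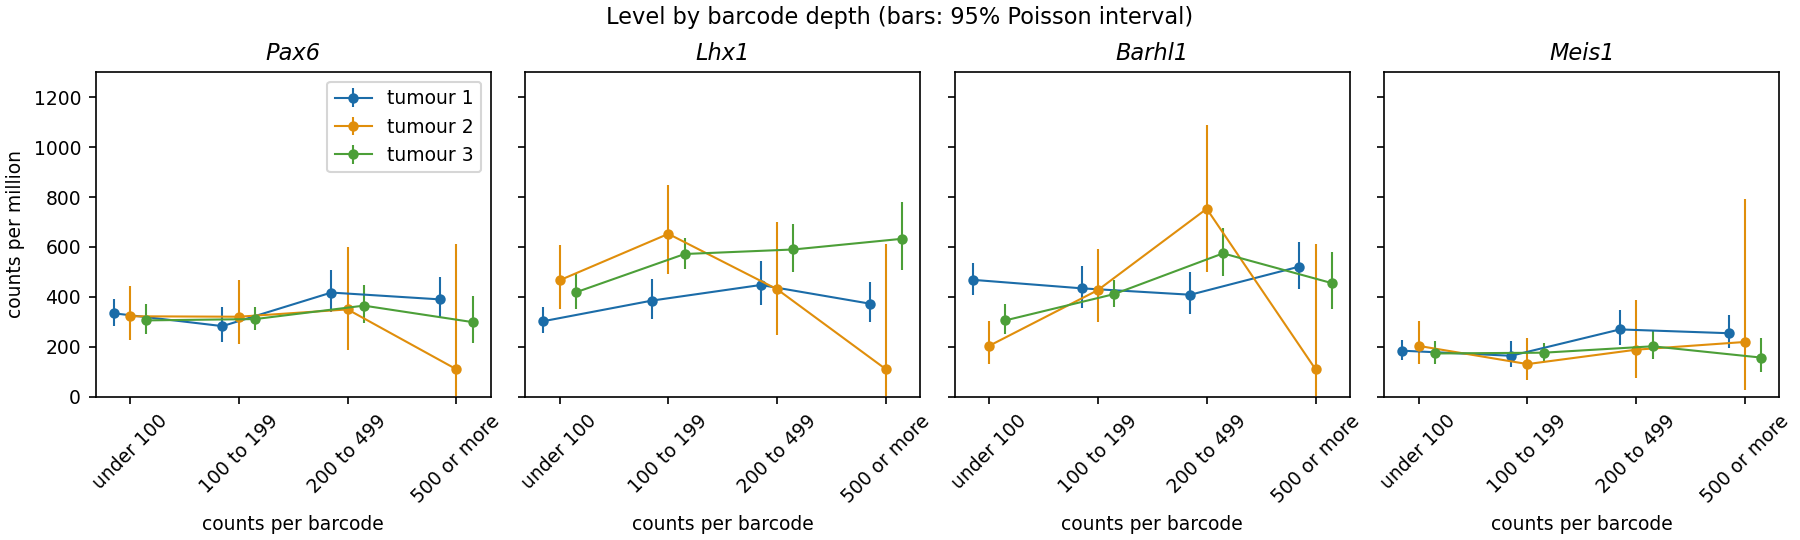
Level of the 4 abundant genes by barcode depth, in CPM, with points joined within a tumour and bars for 95% Poisson intervals. The deepest bin of tumour 2 holds 9 barcodes, and its intervals are the widest.

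Taken over all other cell types, barcodes that carried their markers held Lhx1 and Barhl1 less often in each tumour. Of the barcodes with at least 200 counts, 81 held at least 3 counts of at least 2 genes from a list of another cell type. The other 2186 did not. The lists were choroid plexus, astrocyte, oligodendrocyte, myeloid, endothelial and mural, and erythroid. The choroid plexus list called 0 barcodes, so choroid plexus is not among the 81. Lhx1 was detected in 3.70% of these 81 barcodes, against 15.4% of the 2186 others. Barhl1 was detected in 4.94% of them, against 15.5% of the others, although the 81 barcodes were deeper, with a median of 528 counts against 309. The detected shares of Meis1 and Pax6 lay closer together, at 6.17% against 7.82% for Meis1 and 9.88% against 11.8% for Pax6. These shares went either way by tumour, but they were not adjusted for depth. Per count and pooled over tumours, both genes were lower in the barcodes of other cell types. Pax6 had 144.7 CPM there against 387.6 CPM in the others, and Meis1 had 96.5 against 234.5 CPM. The lower levels rested on 9 Pax6 and 6 Meis1 counts in the 81 barcodes. Pax6 was detected in 4 of 48, 1 of 9 and 3 of 24 of these barcodes in tumours 1, 2 and 3, against 138 of 1012, 11 of 139 and 108 of 1035 others. Lhx1 and Barhl1 were each detected in 0 of the 9 in tumour 2. By cell type the detected shares did not always differ. Barhl1 was detected in 3 of 19 astrocyte barcodes, 18 of them from tumour 1, and Lhx1 in 3 of 19 oligodendrocyte barcodes, 15.8% each. Per count, Barhl1 had 336.8 CPM in these astrocyte barcodes, against 532.5 CPM in the 2186 others. Lhx1 had 310.2 CPM in these oligodendrocyte barcodes, against 524.3 CPM in the others. With 5 Barhl1 and 4 Lhx1 counts, these values cannot tell whether the difference held within a cell type.

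The 34 myeloid barcodes, 14, 5 and 15 in tumours 1, 2 and 3, had a median of 525.5 counts. There Lhx1 had 0 counts, and Barhl1, Pax6 and Meis1 had 1 count each. The 0 allows up to 10.3% of such barcodes to hold a count at this depth, pooled over tumours (exact binomial, 95%), and does not limit the share of cells that express Lhx1. Neurod1 was detected in 20.6% of these myeloid barcodes, against 35.2% of the 2186 barcodes without such a call. The myeloid barcodes also held 13 Mki67 and 20 Top2a counts, 9 and 16 of them in tumour 3. Neurod1 is not a gene of myeloid cells. Free RNA and doublets cannot be told apart here, and their part in the splits below was not tested.

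The first split set barcodes in which Neurod1 was detected against those in which it was not. Neurod1 is a bHLH factor that granule cells switch on as they begin to differentiate. The classes held 330, 51 and 407 Neurod1-detected barcodes and 730, 97 and 652 Neurod1-not-detected barcodes in tumours 1, 2 and 3. Of 5834 genes fitted, 66 passed at an adjusted p under 0.05, which is 1.13%. Of the 10 transcription factor genes, 6 had the 30 counts required for the fit, and 0 of these 6 passed by edgeR's quasi-likelihood test. At an unadjusted p under 0.05 there were 2 of 6, against 510 of 5834 genes (8.74%). DESeq2 called 0 of all 5834 genes. Without tumour 2, 134 genes passed by edgeR's quasi-likelihood test, with 0 of the 6 among them. The median log2 change of the 6, with all tumours, was 0.39, against -0.022 over all genes fitted.

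Lhx1 had 567.9, 520.3 and 670.8 CPM in Neurod1-detected barcodes of tumours 1, 2 and 3, against 334.2, 259.0 and 562.1 CPM in Neurod1-not-detected barcodes. It was higher with Neurod1 in each of the 3 tumours, but the groups overlapped, since tumour 3 was high in both classes. The log2 change was 0.52 (SE 0.20, 95% interval 0.12 to 0.92), with an unadjusted p of 0.0112 and an adjusted p of 0.310 by edgeR's quasi-likelihood test. When each barcode was thinned to 200 counts, which also redraws the classes, the log2 change was 0.13. Lhx1 was then detected in 24 of 219, 1 of 38 and 36 of 316 Neurod1-detected barcodes of tumours 1, 2 and 3, against 60 of 841, 10 of 110 and 78 of 743 Neurod1-not-detected barcodes. That share was higher with Neurod1 in tumours 1 and 3 and lower in tumour 2. Barcodes with at least 100 but under 200 counts, which lie outside these pools, gave a smaller log2 change of 0.23. Its 95% interval was -0.24 to 0.69, and Lhx1 did not pass there.

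Pax6 had 488.6, 208.1 and 472.0 CPM in Neurod1-detected barcodes, against 362.9, 370.1 and 253.6 CPM in Neurod1-not-detected barcodes. It was higher with Neurod1 in tumours 1 and 3 and lower in tumour 2, whose Neurod1-detected class held only 4 Pax6 counts. The log2 change was 0.53 (SE 0.22, 95% interval 0.097 to 0.97), with an adjusted p of 0.376 by edgeR's quasi-likelihood test. Without tumour 2 it was 0.64 with an adjusted p of 0.071, and without tumour 3 it was 0.12. Thinned to 200 counts it was 0.49. Barcodes with at least 100 but under 200 counts lie outside these pools. They gave Pax6 at 375.4, 383.9 and 351.1 CPM with Neurod1 in tumours 1, 2 and 3, against 262.0, 303.5 and 298.0 CPM without it. The tumour 2 values rested on 7 and 20 counts. There the log2 change was 0.28, with a 95% interval of -0.28 to 0.84, and Pax6 did not pass.

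Barhl1 had no common direction in this split. It had 449.0, 416.3 and 577.6 CPM in Neurod1-detected barcodes, against 474.3, 777.1 and 502.9 CPM in Neurod1-not-detected barcodes. Its log2 change was -0.058, with a 95% interval of -0.45 to 0.34. That interval leaves out a doubling and a halving, but it reached -1.03 without tumour 1 and -1.15 without tumour 3, which include a halving. Meis1 had 297.1, 260.2 and 186.3 CPM with Neurod1, against 245.1, 148.0 and 186.0 CPM without it. Its log2 change was 0.19 (95% interval -0.35 to 0.73), and in tumour 3 the 2 classes were almost equal.

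Otx2 and Barhl2 rested on 34 and 31 counts in all barcodes of at least 200 counts. The log2 change of Otx2 was 0.44, with a 95% interval of -0.85 to 1.74. That of Barhl2 was 0.33, with a 95% interval of -1.03 to 1.69. Both intervals include a doubling, so a change of that size is not excluded by these counts.

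Markers moved with this split. The granule neuron list without Neurod1 stood at 2423, 1301 and 1795 CPM in Neurod1-detected barcodes of tumours 1, 2 and 3, against 990, 999 and 1031 CPM in Neurod1-not-detected barcodes. The granule progenitor list stood at 1737, 1509 and 2360 CPM with Neurod1, against 2527, 1702 and 2980 CPM without it. Mitochondrial counts made up 4.94%, 7.75% and 5.37% in Neurod1-detected barcodes, against 5.98%, 13.5% and 6.93% in the others. Markers of other cell types differed too, mostly in tumour 2. The myeloid list stood at 416, 3746 and 385 CPM in Neurod1-detected barcodes, against 614, 999 and 968 CPM in the others. The oligodendrocyte list stood at 674, 2446 and 323 CPM with Neurod1, against 563, 259 and 486 CPM without it. The endothelial and mural list stood at 0, 1145 and 174 CPM, against 232, 296 and 148 CPM. In tumour 2 the myeloid, oligodendrocyte and endothelial lists held 72, 47 and 22 counts in the Neurod1-detected class. Only 4 of its 51 barcodes were called as another cell type, so few barcodes can set these values. The list of excitatory cerebellar nuclei stood at 528, 52.0 and 385 CPM, against 175, 74.0 and 241 CPM. Most of its counts were of the vesicular glutamate transporter gene Slc17a6, with 250 in these barcodes of tumours 1 and 3. Lhx9, also on the list, had 4, 0 and 5 counts in whole tumours 1, 2 and 3. Tbr1, the remaining gene, had counts in tumours 1 and 3 and 0 in tumour 2. With so few counts beside Slc17a6, the list cannot tell whether nuclear neurons were present. With the 81 barcodes of other cell types left out, the log2 change was 0.51 for Lhx1 and 0.53 for Pax6. The part of the granule lists, the excitatory nuclei list and the mitochondrial share in the values of the 10 genes was not tested.

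**Figure D3:**
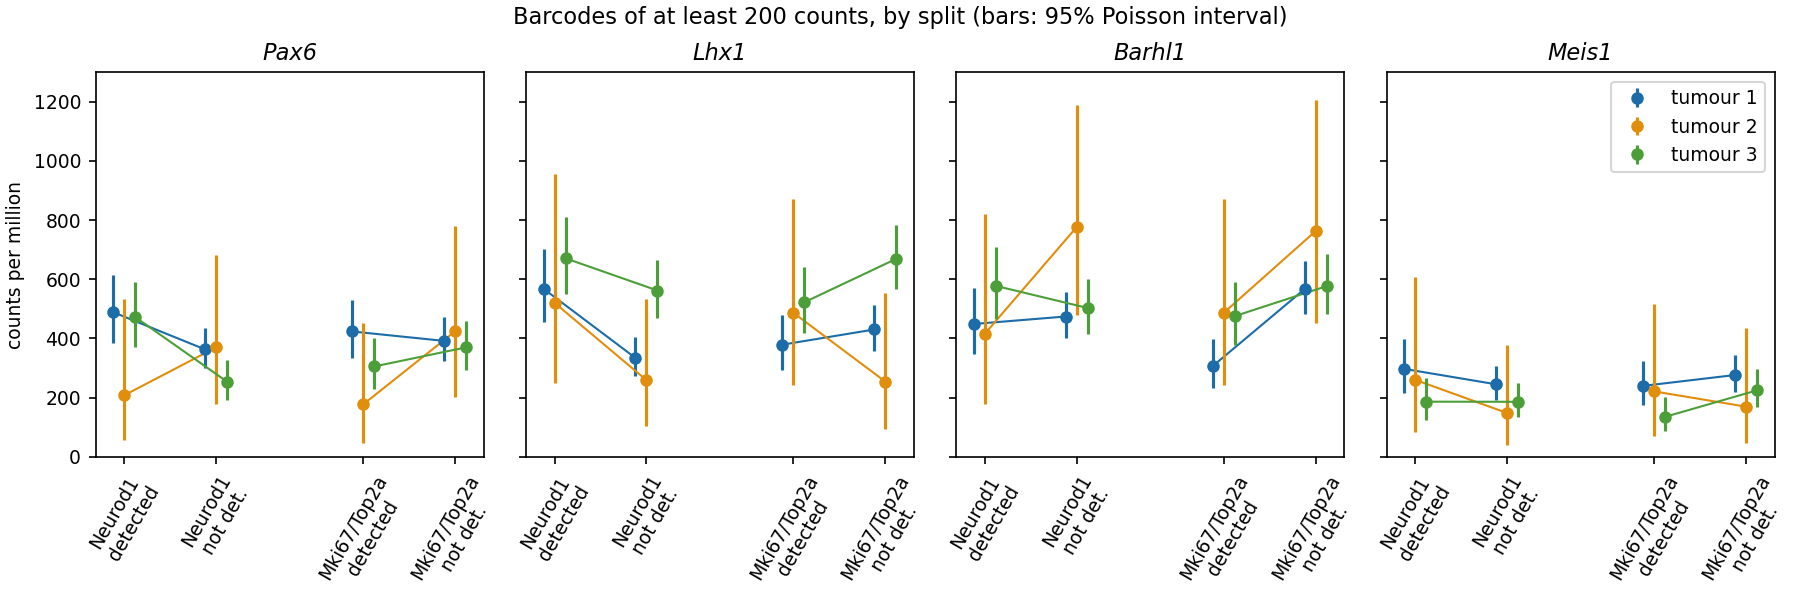
Level of the 4 abundant genes in barcodes of at least 200 counts, in CPM, split by Neurod1 (left pair) and by Mki67 or Top2a (right pair), with lines joining the classes of 1 tumour and bars for 95% Poisson intervals. Barhl1 is lower with Mki67 or Top2a in all 3 tumours, and Lhx1 is higher with Neurod1 in all 3.

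The second split set barcodes with a count of Mki67 or Top2a, which dividing cells express, against those without. The proliferation-detected class held 343, 58 and 377 barcodes and the other class 717, 90 and 682 barcodes in tumours 1, 2 and 3. Of 5833 genes fitted, 172 passed, which is 2.95%. Of the same 6 transcription factor genes 0 passed by edgeR's quasi-likelihood test, and 1 had an unadjusted p under 0.05, against 576 of 5833 genes (9.87%). DESeq2 called 33 of the 5833 genes and 0 of the 6. All 6 log2 changes were negative, with a median of -0.25 against -0.0082 over all genes fitted, but Pax6, Lhx1, Meis1 and Otx2 each turned positive in at least 1 alternative setting.

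Of the 6 genes, Barhl1 had the smallest p. Its level was 306.6, 486.6 and 475.6 CPM in proliferation-detected barcodes of tumours 1, 2 and 3, against 566.8, 762.9 and 576.9 CPM in barcodes without Mki67 or Top2a. It was lower with Mki67 or Top2a in 3 of 3 tumours and the groups did not overlap, a pattern in this direction that 5.52% of the genes fitted showed. The log2 change was -0.57 (SE 0.20, 95% interval -0.96 to -0.17), with an unadjusted p of 0.00487 and an adjusted p of 0.119 by edgeR's quasi-likelihood test.

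The direction for Barhl1 held in each of 16 alternative settings, where the log2 change ranged from -0.82 to -0.34, and the adjusted p from 0.012 to 0.99998. It passed in 1 of them, when barcodes over 10% mitochondrial counts were left out (log2 change -0.81, adjusted p 0.012). Thinned to 200 counts, Barhl1 was detected in 4.96%, 6.12% and 5.70% of proliferation-detected barcodes of tumours 1, 2 and 3, against 8.31%, 13.1% and 9.72% of the others. Thinning matters here because the proliferation-detected barcodes were deeper, with medians of 447, 274.5 and 359 counts against 318, 246.5 and 284.

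A few barcodes held many Barhl1 counts. A tumour 1 barcode held 17 Barhl1 counts among 568, with 0 Neurod1 and 0 Mki67 or Top2a counts, while the next highest of that tumour held 4. Without it the log2 change was -0.50, with an adjusted p of 0.247. In tumour 2 a barcode with 7 Barhl1 counts among 210 held a proliferation count. Barcodes with at least 100 but under 200 counts, none of which are in these pools, gave Barhl1 at 294.4, 409.5 and 386.8 CPM with Mki67 or Top2a, against 452.1, 431.5 and 416.1 CPM without them. There tumour 1 differed most. The log2 change was -0.34 with a 95% interval of -0.97 to 0.29 and an adjusted p of 0.998 by edgeR's quasi-likelihood test, while the median over all genes fitted was -0.12.

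Lhx1 showed no common direction in this split. It had 379.1, 486.6 and 522.6 CPM in proliferation-detected barcodes, against 430.4, 254.3 and 669.3 CPM in the others, and tumour 2 went against the other two. Its log2 change was -0.18 (95% interval -0.58 to 0.22). Pax6 had 423.7, 177.0 and 305.3 CPM with Mki67 or Top2a, against 391.9, 423.9 and 369.9 CPM without them, a log2 change of -0.13 (95% interval -0.57 to 0.32). These 2 intervals leave out a doubling and a halving, but this did not hold in every setting. For Pax6 the interval reached -1.38 without tumour 1 and -1.23 without tumour 3, and -1.10 by DESeq2, and for Lhx1 it reached 1.07 without tumour 3.

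Meis1 had 239.7, 221.2 and 135.0 CPM in proliferation-detected barcodes, against 276.4, 169.5 and 224.6 CPM in the others. Its log2 change was -0.35 (95% interval -0.91 to 0.20). Otx2, at -0.32, and Barhl2, at -0.097, had intervals wider than a doubling in each direction.

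In the proliferation split too, markers moved with the classes. Granule neuron markers, here without Neurod1, stood at 903, 929 and 752 CPM in proliferation-detected barcodes of tumours 1, 2 and 3, against 1806, 1314 and 1783 CPM in the others. Granule progenitor markers stood at 2704, 1548 and 2848 CPM with Mki67 or Top2a, against 2001, 1695 and 2642 CPM without them, so tumour 2 went against the other two. Astrocyte markers stood at 379, 265 and 235 CPM in proliferation-detected barcodes, against 941, 127 and 189 CPM in the others. Oligodendrocyte markers stood at 318, 221 and 382 CPM, against 777, 2077 and 449 CPM. Myeloid markers stood at 429, 3451 and 622 CPM, against 626, 890 and 815 CPM. In tumour 2 the 3451 CPM was 78 counts and the 2077 CPM was 49 counts. Those classes held 4 and 5 barcodes of other cell types. With the barcodes of other cell types left out, the log2 change of Barhl1 was -0.55. Neurod1 itself was lower with Mki67 or Top2a, by a log2 change of -1.11 with an adjusted p of 6.2e-12 by edgeR's quasi-likelihood test, so the 2 splits are not independent. In the fit with both splits as additive terms, the log2 change of Barhl1 with Mki67 or Top2a was -0.54.

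**Figure D4:**
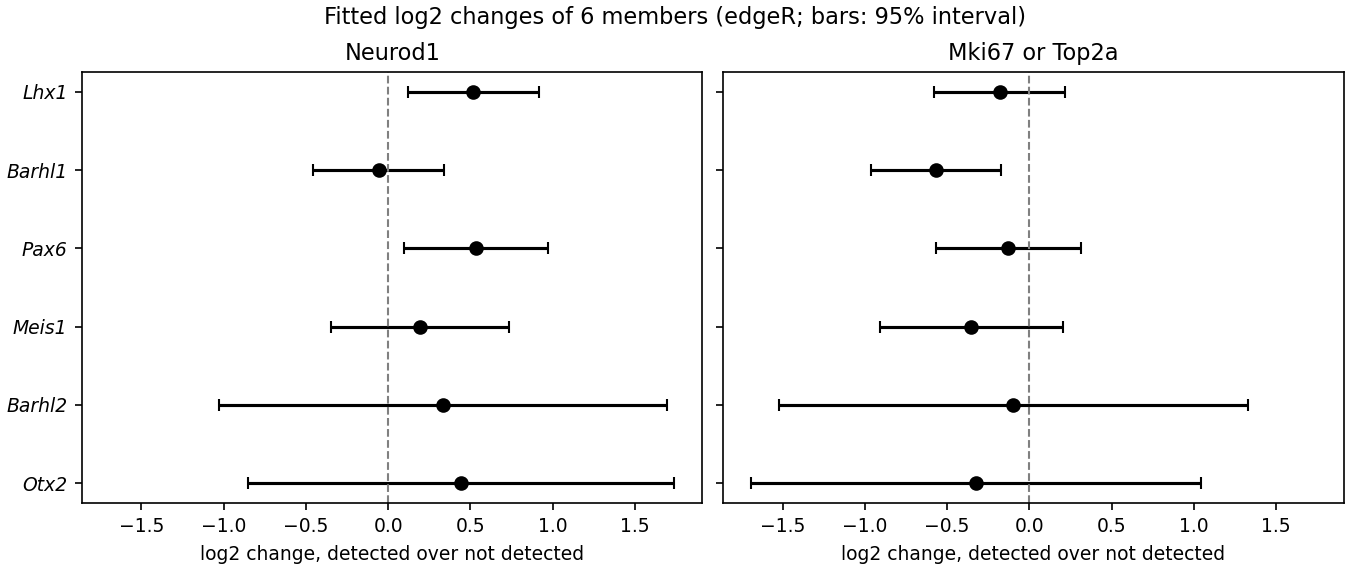
Fitted log2 changes of the 6 genes with at least 30 counts, detected over not detected, for Neurod1 (left) and for Mki67 or Top2a (right), with bars for 95% intervals. The intervals of Lhx1 and Pax6 for Neurod1 and of Barhl1 for Mki67 or Top2a leave out 0, but 0 of the 6 genes passed after adjustment over all genes.

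Crossing both splits gave 4 classes per tumour. Lhx1 averaged 607 ± 21.7 CPM where Neurod1 and a proliferation gene were detected together, 567 ± 128 CPM with Neurod1 only, 390 ± 88.3 CPM with a proliferation gene only and 382 ± 255 CPM with neither (SD, n = 3 each). Barhl1 averaged 367 ± 240 CPM in the class with both, 611 ± 170 CPM with Neurod1 only, 501 ± 286 CPM with a proliferation gene only and 650 ± 92.4 CPM with neither (SD, n = 3 each). Tumour 2 had 1 Barhl1 count in the class with both and 10 with a proliferation gene only, 7 of them in 1 barcode. In tumours 1 and 3 Barhl1 was higher with both, at 448.0 and 554.9 CPM, than with a proliferation gene only, at 256.9 and 431.9 CPM. Among tumours Lhx1 varied most in the class with neither, and Barhl1 in the class with a proliferation gene only.

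The interaction asks whether the Neurod1 difference is another one in barcodes with a proliferation gene than in those without. It passed for 2 of 5832 genes, or 0.0343%, and for 0 of the 6 transcription factor genes by edgeR's quasi-likelihood test, with 0 of 6 at an unadjusted p under 0.05. Otx2 came nearest, with an interaction of 2.45 on the log2 scale (95% interval -0.011 to 4.91, unadjusted p 0.051, adjusted p 0.999). It rests on 8 counts with both, 7 with Neurod1 only, 4 with a proliferation gene only and 15 with neither.

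Meis2, En1, En2 and Etv1 had 7, 20, 8 and 16 counts in barcodes of at least 200 counts, too few for the fit. The Neurod1-detected class holds fewer counts in all than the other class, and so does the proliferation-detected class. En1 had 10 counts in Neurod1-detected barcodes, against 10 in Neurod1-not-detected barcodes, which gives a mean over 3 tumours of 36.2 CPM, from 13.2 to 52.0 CPM, against 12.3 CPM, from 0 to 21.1 CPM. The 52.0 CPM was 1 count in tumour 2, against 0. Tumour 1 went the other way, with 2 counts against 5 (13.2 against 15.9 CPM), and tumour 3 had 7 against 5. Etv1 had 4 counts with Neurod1, against 12 without, and 3 with Mki67 or Top2a, against 13 without. In tumour 2 the counts of Meis2, En2 and Etv1 in these barcodes were 0, which allows up to 2.46% of its 148 barcodes to hold a count of each at this depth (exact binomial, 95%) and does not limit the share of cells that express them.

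**Figure D5:**
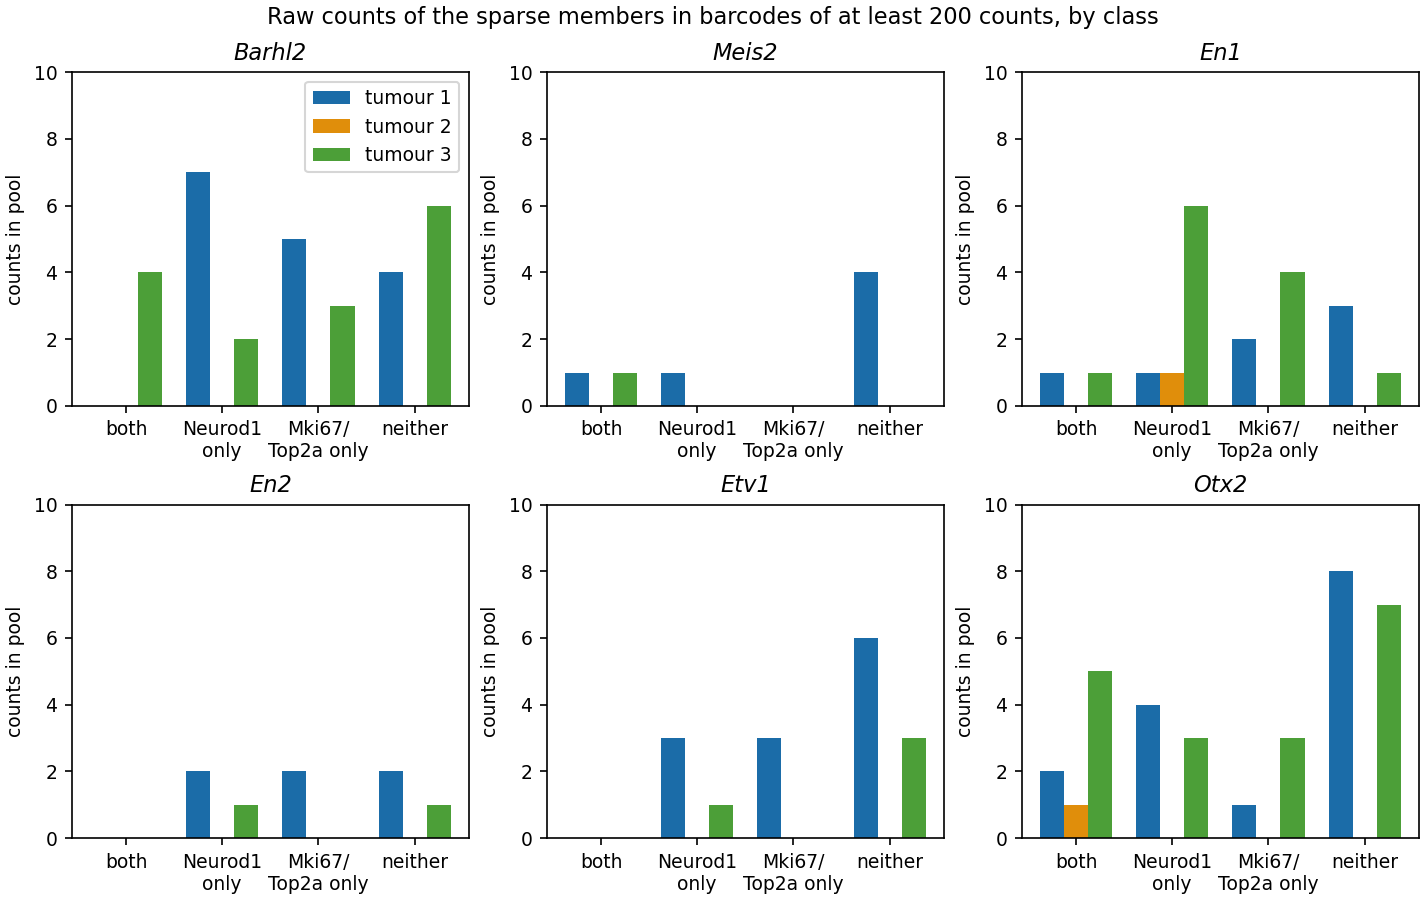
Raw counts of the 6 sparse genes in barcodes of at least 200 counts, by class and tumour; "both" means that Neurod1 and Mki67 or Top2a were detected. Bars of tumour 2 appear only for En1 and Otx2, with 1 count each.

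Few barcodes with a sparse gene held a marker of another cerebellar cell type, but those markers were themselves rare. Over all depths, Otx2 was detected in 82 barcodes, of which 0 held a unipolar brush cell marker, 1 a choroid plexus marker and 2 a Purkinje or GABAergic marker. Etv1 was detected in 67 barcodes and En1 in 42, of which 0 held a unipolar brush cell marker and 1 each a choroid plexus marker. Of the 1026 barcodes with Lhx1, 5 held a Purkinje or GABAergic marker and 301 held Neurod1, which is 29.3%, against 19.5% of all 20959 barcodes. This was not particular to Lhx1. The share with Neurod1 was 28.3% for Pax6, 26.3% for Barhl1, 26.5% for Meis1 and 30.5% for Otx2. Among the remaining genes it ran from 19.4% for Barhl2 to 28.6% for En1. A deeper barcode has more chance to hold a count of each of 2 genes, so a higher share is not by itself a relation between genes.

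The abundant genes were rarely detected in the same barcode. After thinning to 200 counts, Pax6 was detected in 152, Barhl1 in 187, Meis1 in 81 and Lhx1 in 209 of 2267 barcodes. Pax6 and Lhx1 were found together in 20 barcodes, against 13.8 from their separate frequencies. Meis1 and Lhx1 were together in 13, against 7.4. Pax6 and Meis1 were together in 9, against 5.5, and Barhl1 and Lhx1 in 20, against 17.3. Pax6 and Barhl1 were together in 6, against 12.5, and Barhl1 and Meis1 in 3, against 6.7. These are counts of few barcodes pooled over tumours, given as a description.

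Over 8 pools of tumour and class in tumours 1 and 3, the genes whose level went most like that of Lhx1 were Slc17a6, which encodes a vesicular glutamate transporter, Nnat and Chd7. Their Pearson correlations of log2 CPM with Lhx1 were 0.99, 0.96 and 0.95, the highest of 1799 genes compared. Slc17a6 itself passed in the Neurod1 split, higher by 1.14 on the log2 scale (adjusted p 0.0013 by edgeR's quasi-likelihood test). For Pax6 the nearest were Brcc3, Mtch2 and Klf7, at 0.97, 0.96 and 0.95. For Barhl1 they were Cisd1, Fth1 and Top2b, at 0.95, 0.94 and 0.93, and for Meis1 they were Gigyf2, Adam10 and Calm3, at 0.97, 0.96 and 0.95. Pools of 1 tumour share a library, and these genes were picked as the highest of many, so the values are a description.

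Of 5 lists of related genes, 0 of 21 fitted genes passed in the Neurod1 split and 1 of 21 in the proliferation split by edgeR's quasi-likelihood test, where 1.13% and 2.95% of all genes passed. The gene that passed was Uncx, a paired-type homeobox gene, among 10 fitted of 23 other neural homeobox genes. Uncx had 72.5, 0 and 164.4 CPM in proliferation-detected barcodes of tumours 1, 2 and 3, against 216.9, 423.9 and 343.5 CPM in the others. The 0 counts of tumour 2 allow up to 163.2 CPM by the 95% Poisson interval. It was lower with Mki67 or Top2a in 3 of 3 tumours without overlap, as Barhl1 was. The log2 change was -1.41 (SE 0.31), with an adjusted p of 0.00068 by edgeR's quasi-likelihood test.

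The call for Uncx did not hold in every setting. In 7 of 16 alternatives it did not pass. In 5 of these the log2 change was at least as large. It was -1.56 without tumour 1 (adjusted p 0.305), -2.14 without tumour 3 (0.99993), -1.72 by DESeq2 (0.199), -1.48 with no tumour block (0.0696) and -1.55 after thinning (0.057). With barcodes of at least 100 counts it was -0.83, with an adjusted p of 0.060. Barcodes with at least 100 but under 200 counts gave a log2 change of -0.013 with an adjusted p of 0.998. In the Neurod1 split Uncx had 184.9, 104.1 and 416.1 CPM in Neurod1-detected barcodes, against 149.6, 296.0 and 164.8 CPM in the others. Its log2 change there was 0.70 with an adjusted p of 0.320, and 0.88 with an adjusted p of 0.076 without tumour 2.

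In the other 4 lists 0 of 11 fitted genes passed in either split by edgeR or by DESeq2. At an unadjusted p under 0.05 by edgeR there was 1 of 11 in the Neurod1 split, against 8.74% of all genes, and 2 of 11 in the proliferation split, against 9.87%. The lists held MEIS and PBX cofactors (4 of 9 fitted), midbrain-hindbrain boundary genes and engrailed partners (3 of 15), LIM homeobox and rhombic lip genes with their cofactors (3 of 11) and ETS factors near Etv1 (1 of 9). Median log2 changes in the Neurod1 split were -0.19, -0.60, -0.39 and -0.44 in that order, and -0.012 in the other neural homeobox genes. In the proliferation split they were -0.21, -0.055, 0.44, 0.49 and -0.026.

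Atoh1, the rhombic lip factor, had a log2 change of -0.92 in the Neurod1 split (adjusted p 0.292 by edgeR's quasi-likelihood test). Ldb1, which bridges LIM homeodomain proteins, had -1.63 in the proliferation split (adjusted p 0.0595), and the homeobox gene Cux1 had 0.85 there (adjusted p 0.0573). Olig3, a bHLH factor of the rhombic lip, had 2, 12 and 79 counts in tumours 1, 2 and 3, while Gbx2, which opposes Otx2 at the midbrain-hindbrain border, had 1 count in all. Otx1, the paralog of Otx2, had 27.8, 52.3 and 37.8 CPM, a level that overlapped that of Otx2.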

How the data were processed

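The authors deposited whole-number counts per gene and barcode for 3 tumours. Per the labels' protocols, cells were dissociated with papain and 3′-biased Drop-seq libraries were made. STAR, Cell Ranger and a GRCh38 build are named in the submitters' processing notes without version or role, although the symbols are those of mouse, so no coordinates were used. Every barcode holds at least 50 genes. Members and lists were chosen with earlier results of these data known.

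Barcodes of at least 200 counts were split by detection of Neurod1, or of Mki67 or Top2a. Counts were summed per tumour and class without the splitting genes. Genes with at least 30 counts were fitted with tumour as a block, since both classes come from the same tumour (edgeR 4.0.16 with limma 3.58.1 in R 4.3.3, TMM, quasi-likelihood test, Benjamini-Hochberg over all genes, threshold 0.05). DESeq2 1.42.0 was an alternative, and figures used matplotlib 3.10.9. The steps were tested on simulated data. Beside the 10 members, list genes that passed were named, and the 3 genes with the highest within-tumour correlation of log2(CPM + 10) for each abundant member. Atoh1, Ldb1, Cux1, Olig3, Gbx2 and Otx1 were named from the lists after their values were seen. Nothing in the labels says what else differed between the tumours. In the reported fits, edgeR took the spread between pools almost wholly from all genes together. The p-values and intervals of 1 gene therefore need not cover its own spread between these 3 tumours. No doublet caller was run. The counting strand is not given in the sources used here, so reads of Pax6 and Pax6os1, and of Meis1 and its antisense genes Gm16140 and Gm16141, may not be told apart.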

Additional observations from a re-analysis of the deposited data

How the results depend on the processing

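In the Neurod1 split, 66 genes passed. That count was 39 with no filter on low counts, 38 with filterByExpr, 39 with barcodes of at least 100 counts, 15 after thinning to 200 counts, and 0 by DESeq2 (81 genes at an unadjusted p under 0.05), with no replicate block (219) or in barcodes of at least 100 but under 200 counts (155). Leaving out 1 tumour gave 0 to 134. In the proliferation split, 172 passed, against 33 by DESeq2, 62 with no replicate block, 112 with barcodes of at least 300 counts, 44 after thinning and 0 in barcodes of at least 100 but under 200 counts (133), and leaving out 1 tumour gave 0 to 161. The interaction passed for 2 genes, 0 after thinning, which moved the median of all genes to -0.58, and 0 to 2 without 1 tumour. Members passing stayed at 0 throughout, except for 1, Barhl1, in the proliferation split with at most 10% mitochondrial counts.

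Some signs turned, also for changes well away from 0. In the Neurod1 split, Barhl1 was -0.37 to 0.065 with 1 tumour left out and 0.016 without the barcode of 17 Barhl1 counts. In barcodes of at least 100 counts Barhl2 was -0.54, against 0.33 as reported, and in those of at least 100 but under 200 counts Barhl2 was -1.37 and Meis1 -0.23. Uncx was -0.11 without tumour 3 and 0.88 without tumour 2, against 0.70. In the proliferation split, Pax6 was 0.088 after thinning and 0.014 in barcodes of at least 100 but under 200 counts, where Meis1 was 0.20, against -0.35. Lhx1 was 0.085 without tumour 3 and -0.27 without tumour 2, and Otx2 was 0.14 in barcodes of at least 100 counts, against -0.32. In the interaction, Pax6 was 0.44 without tumour 1 and 0.10 without tumour 3, Barhl1 was -0.31 without tumour 1, 0.77 without tumour 2 and -0.049 after thinning, against 0.45, and Lhx1 was -0.17 after thinning. The cause of these changes was not tested.

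Lhx1 (0.13 to 0.82) and Pax6 (0.12 to 0.74) in the Neurod1 split and Barhl1 (-0.82 to -0.34) in the proliferation split kept their sign in all 16 alternatives. The settings without the barcode of 17 Barhl1 counts and with barcodes of at least 100 but under 200 counts were chosen after seeing the data. Restricting totals to barcodes of at least 200 counts moved 7 of 10 mean levels by more than 1 SD, Barhl1 to 541 CPM among them, and non-mitochondrial scaling moved 1, Pax6, to 354 CPM. Depth limits the sparse members: 4 could not be fitted.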
